A study of Mus musculus with 5 samples.

Results

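The 10 Kruppel-like factor genes Klf2, Klf3, Klf4, Klf5, Klf6, Klf7, Klf9, Klf10, Klf12 and Klf13 were taken by their mm9 gene symbols, and each symbol matched 1 gene of 37310 in the annotation. Kruppel-like factors are transcription factors with a conserved zinc-finger domain that binds GC boxes and CACCC boxes, and they differ in the partners they recruit. Klf2, Klf4 and Klf5 are known for overlapping roles in the self-renewal of mouse ES cells, where Klf4 is also one of the factors used to reprogram fibroblasts. Klf3 and Klf12 recruit the corepressor CtBP, Klf9, Klf10 and Klf13 recruit Sin3a, and Klf2, Klf4, Klf5, Klf6 and Klf7 act mostly as activators.

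Engaged RNA polymerase was mapped by global run-on sequencing, a method in which nuclei are taken out of the cell and their polymerases, already on the DNA, add a few brominated bases that let an antibody pull out the new RNA. The 5′ end and strand of a read therefore mark transcription in progress, not the amount of stable RNA. MESC were 3 samples of the ES cell line V6.5 (C57Bl/6(f) x 129/Sv(m)), at passages 12 to 14, grown with LIF on irradiated feeder cells. MEF were 2 samples of fibroblasts of the same cross, isolated from male E13.5 embryos, at passage 2, grown without LIF. The deposited reads were pooled by cell type, so each value below comes from 1 library per cell type, no difference has a replicate check, and every interval is an exact 95% interval of counting error alone.

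The MESC library held 8571395 reads outside the mitochondrial genome and the MEF library 6571116. Summed body densities of 5 ES cell markers were 32.4 in MESC and 0.179 in MEF (RPKM, reads per kilobase scaled to library size), those of 5 fibroblast markers 1.63 and 90.4, those of 5 endothelial markers 0.480 and 0.252, and those of 4 macrophage markers 2.50 and 9.67. Nearly all of the macrophage sums came from Cd68, at 2.48 and 9.06 RPKM. It had 20 and 56 reads and was not among the bodies tested. ES cell markers included 2 genes at 0 reads in MEF, the endothelial list had 1 gene at 0 in MEF, and no marker of these lists was at 0 in MESC. In pooled libraries fewer cells of a type and fewer polymerases per cell cannot be told apart, and the part of feeder or macrophage nuclei in any value was not tested.

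The promoters differed in base composition. Of the 10 members, 8 had a promoter of 300 bases in the RefSeq table (GRCm38.p6), from 250 bases before the start, and all 8 matched mm9 once. GC content was 45.7% at Klf12 and between 58.3% (Klf7) and 76.7% (Klf3) at the other 7, against a median of 52.7% over 32851 promoters. The 5 shown are those of the members with the highest promoter density (Klf6, Klf9 and Klf2) and the lowest body density (Klf4 and Klf12). At Klf12 no promoter read fell at this annotated start in either library. Each runs from 100 bases before the RefSeq start through the first 30 bases from it. GC boxes (GGGCGG or CCGCCC) and CACCC boxes (CACCC or GGGTG) are in capitals.
Klf6, chr13:5860635-5860764, plus strand: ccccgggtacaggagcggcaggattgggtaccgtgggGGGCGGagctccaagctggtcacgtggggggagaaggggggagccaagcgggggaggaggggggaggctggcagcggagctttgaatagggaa
Klf9, chr19:23215616-23215745, plus strand: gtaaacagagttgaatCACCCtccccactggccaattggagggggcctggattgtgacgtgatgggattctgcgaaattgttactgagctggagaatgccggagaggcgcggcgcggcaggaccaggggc
Klf2, chr8:74842861-74842990, plus strand: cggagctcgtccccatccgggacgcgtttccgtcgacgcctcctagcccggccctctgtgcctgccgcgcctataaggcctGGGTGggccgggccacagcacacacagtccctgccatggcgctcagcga
Klf4, chr4:55545318-55545447, minus strand: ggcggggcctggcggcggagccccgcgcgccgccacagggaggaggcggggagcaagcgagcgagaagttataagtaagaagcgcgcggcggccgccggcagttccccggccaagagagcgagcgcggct
Klf12, chr14:100548986-100549115, minus strand: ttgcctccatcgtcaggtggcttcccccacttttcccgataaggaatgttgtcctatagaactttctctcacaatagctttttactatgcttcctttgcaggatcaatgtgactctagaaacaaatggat

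Over the whole 300 bases and both strands, the GC box was present in 6 of the 8 promoters and in 35.7% of all 32851. The CACCC box was present in 6 of 8 and in 57.5% of all. The box counts ranged from 6 GC boxes and 5 CACCC boxes at Klf3 to a single box at Klf12, Klf9 and Klf6. That was 1 CACCC box and no GC box at Klf12 and at Klf9, and 1 GC box and no CACCC box at Klf6. The CCAAT box (CCAAT or ATTGG) was present in 3 of 8 (Klf6, Klf9 and Klf13, with 4, 3 and 2 copies) and in 37.4% of all, and the TATA box (TATAAA or TTTATA) in Klf12 alone of the 8 and in 13.6% of all. The letters TTCNNNGAA, the core of a STAT site, were found in the promoter of Klf9 alone of the 8 and in 8.30% of all. CpG dinucleotides numbered 6 at Klf12, 40 at Klf4 and between 16 and 32 at the other 6 promoters, against a median of 7.

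None of the members was transcribed at least 4-fold more in one library than in the other across the gene body, the stretch from 1000 bp after the start to the annotated end. Of the 10 members, 8 could be tested, which needed 50 body reads in 1 library and no other annotated gene on the same strand: Klf4 had too few reads and Klf9 holds the small RNA gene Mir1192. At 4-fold, 0 of 8 were higher in MESC, against 8.00% of 9512 tested bodies, and 0 of 8 higher in MEF, against 5.51%. At 2-fold, 0 of 8 were higher in MESC, against 20.7%, and 1 of 8, Klf7, was higher in MEF, against 12.6%. With 8 genes these counts are near the background. The median log2 ratio of MESC over MEF was -0.10 for the 8 members and 0.30 for all bodies tested, and 3 other scalings between the libraries lower every log2 ratio, by 0.24 (TMM), 0.27 (median ratio) or 0.08 (total without rDNA-like loci). Relative to the median of all bodies, 7 of the 10 members were lower and Klf5, Klf9 and Klf12 higher.

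**Figure D1:**
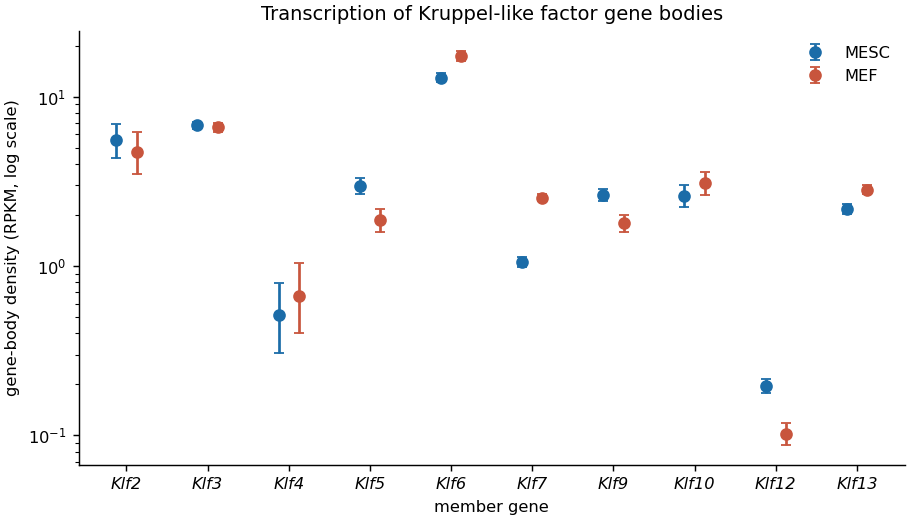
Gene-body density of each member (RPKM, log axis) in MESC (blue) and MEF (red), 1 pooled library each, with bars for exact Poisson 95% intervals. Klf6 is highest in both, at 13.0 and 17.4 RPKM, Klf12 is lowest, at 0.196 and 0.102, and the intervals of the libraries lie apart for Klf5, Klf6, Klf7, Klf9, Klf12 and Klf13.

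The order of levels per length was the same at the top and at the bottom of both libraries. Klf6 was highest, with 13.0 RPKM in MESC and 17.4 in MEF, above 99.2% and 99.5% of tested bodies. Klf3 followed at 6.78 and 6.58 RPKM and Klf2 at 5.53 and 4.69 RPKM. These 3 kept their order in both cell types. In MESC the next were Klf5 (2.98), Klf9 (2.63), Klf10 (2.60), Klf13 (2.17) and Klf7 (1.05), and in MEF Klf10 (3.08), Klf13 (2.83), Klf7 (2.54), Klf5 (1.86) and Klf9 (1.79). Then came Klf4, at 0.511 and 0.667 RPKM, and last Klf12, at 0.196 and 0.102 RPKM. Neighbours whose ratio had an interval holding 1 were Klf3 and Klf2, Klf5 and Klf9, and Klf9 and Klf10 in MESC, and Klf10 and Klf13, and Klf5 and Klf9 in MEF; every other step exceeded counting error.

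Among the members that act mostly as activators, Klf7 and Klf6 were read more in MEF and Klf5 more in MESC, while Klf2 and Klf4 did not differ beyond counting error. Klf7, a regulator of neuronal development (chromosome 1, 64076021 to 64168065, minus strand), had 822 body reads in MESC and 1518 in MEF, 2.41-fold higher in MEF (2.21 to 2.63). Klf6, a widely expressed gene induced by growth and injury signals (chromosome 13, 5860735 to 5869639), had 879 and 906 reads, 1.34-fold higher in MEF after scaling (1.22 to 1.48). Klf5, which maintains ES cells and intestinal epithelium (chromosome 14, 99697910 to 99712624), had 350 and 168 reads, 1.60-fold higher in MESC (1.33 to 1.93). These 3 ratios keep their direction, with intervals that exclude 1, under all 3 other scalings. MESC reads were 35 or 36 bases long, and the 2 lengths differed beyond counting error at Klf6 and Klf5 but not at Klf7. The ratio of 35-base over 36-base body reads after scaling was 0.772 at Klf6 (0.673 to 0.885) and 0.726 at Klf5 (0.581 to 0.904). With each length alone the log2 ratio was -0.64 and -0.27 at Klf6 and 0.41 and 0.87 at Klf5, so their directions held. Both Klf6 values lay outside its counting interval.

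Klf2, known for its role in endothelium and in ES cell self-renewal (chromosome 8, 74842932 to 74845555), had 77 body reads in MESC and 50 in MEF, a ratio of 1.18 (0.816 to 1.72). Its log2 ratio of 0.24 lies at -0.00, -0.03 and 0.16 under TMM, median-ratio and rDNA-free scaling, each with an interval that holds 0. Klf4 (chromosome 4, 55540013 to 55545347, minus strand) had 19 body reads in each library, a ratio of 0.767 (0.384 to 1.53), and 36 and 33 reads over the whole gene. Its density lay above 28.3% of tested bodies in MESC and 41.8% in MEF. A difference in Klf4 inside that interval was not detectable at this depth. Of the 19 MESC reads, 13 were 35 and 6 were 36 bases long, the 2 read lengths of that file.

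The CtBP-binding members went apart. Klf3, a repressor studied in blood and fat cells (chromosome 5, 65194628 to 65221367), had 1495 and 1113 body reads, a ratio of 1.03 (0.952 to 1.11), and its log2 ratio of 0.04 turns to -0.20, -0.22 and -0.04 under TMM, median-ratio and rDNA-free scaling, with intervals that exclude 0 under the first 2. Klf12, first described as a repressor of the AP-2 alpha gene (chromosome 14, 100269869 to 100549015, minus strand), had 466 and 186 reads, 1.92-fold higher in MESC (1.62 to 2.29), the highest ratio among the members.

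The Sin3a-binding members differed by 1.18-fold to 1.47-fold, Klf9 toward MESC and the other 2 toward MEF. Klf9, a hormone-responsive gene (chromosome 19, 23215716 to 23241401), had 556 and 291 reads, 1.47-fold higher in MESC (1.27 to 1.69). Klf13, a regulator of chemokine genes in human T cells (chromosome 7, 71031237 to 71083801, minus strand), had 960 and 959 reads, 1.30-fold higher in MEF (1.19 to 1.43). Klf10, induced early by TGF-beta (chromosome 15, 38221219 to 38230461, minus strand), had 184 and 167 reads, 1.18-fold higher in MEF, with an interval that holds 1 (0.954 to 1.47). Under the 3 other scalings its log2 ratio is -0.49 (TMM), -0.51 (median ratio) and -0.33 (rDNA-free), each with an interval below 0.

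**Figure D2:**
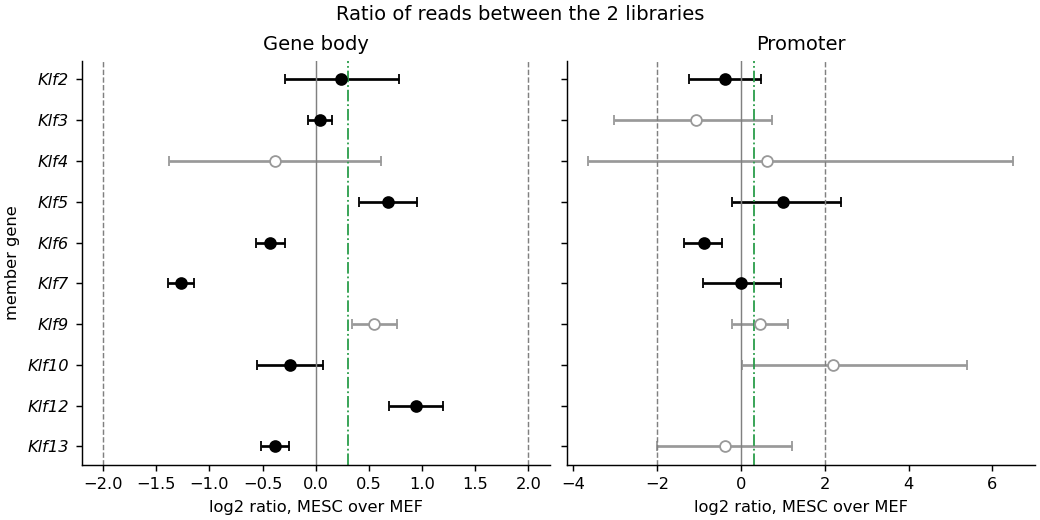
Log2 ratio of MESC over MEF for gene bodies (left) and promoters (right), with bars for exact 95% intervals; filled points were tested, open grey points were not, for too few reads or, at Klf9, for an overlapping gene, and Klf12 has no promoter read. Dashed lines mark 4-fold and the green line the median of all genes tested; no filled point reaches 4-fold, and Klf7 is farthest to the left among bodies at -1.27.

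At the promoters, from 50 bp before to 300 bp after the annotated start, 4 members had at least 20 reads in 1 library and passed the overlap filter. At 4-fold, 0 of 4 were higher in MESC, against 6.06% of 4358 promoters, and 0 of 4 higher in MEF, against 3.03%. Klf6 had 71 and 101 promoter reads, a ratio of 0.539 (0.392 to 0.737), the only one of the 4 whose interval excluded 1. Klf5 had 21 and 8 reads, a ratio of 2.01 (0.856 to 5.25), Klf2 had 25 in each, and Klf7 had 25 and 19. The direction of 3 promoters turns with the MESC read length: the log2 ratio with 35-base and with 36-base reads was 0.25 and -1.32 at Klf2, -1.52 and 0.66 at Klf7, and 1.02 and -0.35 at Klf9. Klf5 was the 1 of 4 at 2-fold in MESC, against 21.1% of promoters, and none was in MEF, against 9.41%. Klf9, outside the test, had 55 and 31 reads. Klf3, Klf4, Klf10, Klf12 and Klf13 had at most 12 reads in either library; Klf10 had 12 and 2 in this window, a ratio of 4.60 from the counts as they are (1.02 to 42.3). With the floor of 3 reads used for calls its log2 ratio was 1.62, and it was -0.03 in a window from -100 to 500 bp and 2.10 with 36-base MESC reads; it was tested in none of these.

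The pausing index, promoter density over body density, was low for most members with windows placed at the annotated starts. The 8 tested include Klf12, with no promoter read, and Klf3, whose highest bin of reads near the start falls in the body window. Both lower the counts of members given here. In MESC 2 of 8 tested members had an index of at least 2 with an adjusted p under 0.05 (one-sided Fisher exact test, Benjamini-Hochberg over 8981 genes), against 62.6% of genes. In MEF it was 3 of 8, against 58.2% of 7736 genes. On the index alone, with no p, the shares of all genes were 67.9% in MESC and 65.7% in MEF, and the members were the same 2 and 3. The median index over all genes was 4.07 in MESC and 3.77 in MEF. Of the tested members, Klf7 in MESC alone lay above these medians.

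Klf7 had the highest index among the tested members, 7.89 in MESC (5.08 to 11.7, adjusted p = 9.89e-14, Fisher exact) and 3.25 in MEF (1.95 to 5.09, adjusted p = 4.23e-05, Fisher exact). Klf9, not tested for its overlap, had indices of 6.96 (5.18 to 9.19) and 7.49 (5.00 to 10.9). Klf5 had 2.34 in MESC (adjusted p = 0.00122, Fisher exact) and 1.86 in MEF (adjusted p = 0.123, Fisher exact). Klf6 had 1.82 in MESC and 2.51 in MEF, and Klf2 1.502 and 2.31, so that both passed an index of 2 in MEF alone. Klf3 had 0.245 and 0.527, Klf10 1.53 and 0.281, Klf13 1.22 and 1.23, and Klf4 1.30 and 0.650. Klf12 had 0 in both, for want of promoter reads.

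The index differed between the libraries for 1 of 4 members tested, against 17.9% of 3809 genes, in a two-sided Fisher exact test on the reads of these 2 libraries. That member was Klf7 (adjusted p = 0.0277). Its higher index in MESC goes with fewer body reads, as its promoter reads were 25 and 19. Of the 25 MESC promoter reads, 21 were 36 bases and 4 were 35 bases long, and the index in MESC was 12.1 from the 36-base reads and 2.80 from the 35-base reads, which is below the 3.25 of MEF. The call was made with the 36-base reads (adjusted p = 0.00129, Fisher exact) and could not be tested with the 35-base reads, and it is lost when each position is counted once, which leaves Klf7 with fewer than 20 promoter reads and untested. Klf6 (adjusted p = 0.177), Klf2 (adjusted p = 0.461) and Klf5 (adjusted p = 0.857) did not pass the same exact test.

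At several members the reads near the start lay outside the promoter window. At Klf7, the start of another annotated transcript, at -791 bp, held 84 promoter reads in MESC and 36 in MEF, more than the 25 and 19 of the longest transcript. The single position with most 5′ ends was at -762 bp from the longest transcript's start in both libraries, with 14 and 4 reads. Counted from that upstream start, the index was 26.5 in MESC and 6.15 in MEF (adjusted p = 1.43e-11, Fisher exact). That start was chosen as the one with most promoter reads, from the same reads, and this comparison was added after seeing the data. Its p-value is thus no separate support, and the index from this start was not split by read length. The reads near the start of Klf7 lay around 2 annotated start regions, and where transcription began was not tested.

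At Klf3 sense reads were few at the start and many further in: the bin from 1000 to 1250 bp held 106 reads in MESC and 75 in MEF, while the promoter window held 5 and 8. The bin before it, from 750 to 1000 bp, held 25 in each library. Both libraries had the same shape. At Klf13 the most read position in MESC, 1671 bp after the start, held 20 reads, and the bin around it, from 1500 to 1750 bp, held 28 in MESC and 7 in MEF.

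At Klf9 MESC reads began before the annotated start: the 500 bp upstream held 28 and 32 sense reads in its 2 bins, against 6 and 5 in MEF. The highest bin was the first after the start in both libraries, with 38 and 28 reads, and the position with most ends was the same, 18 bp into the transcript, with 7 reads each. At Klf6 the first 250 bp held 59 and 84 reads, and the position with most ends was 143 bp after the start in both.

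**Figure D3:**
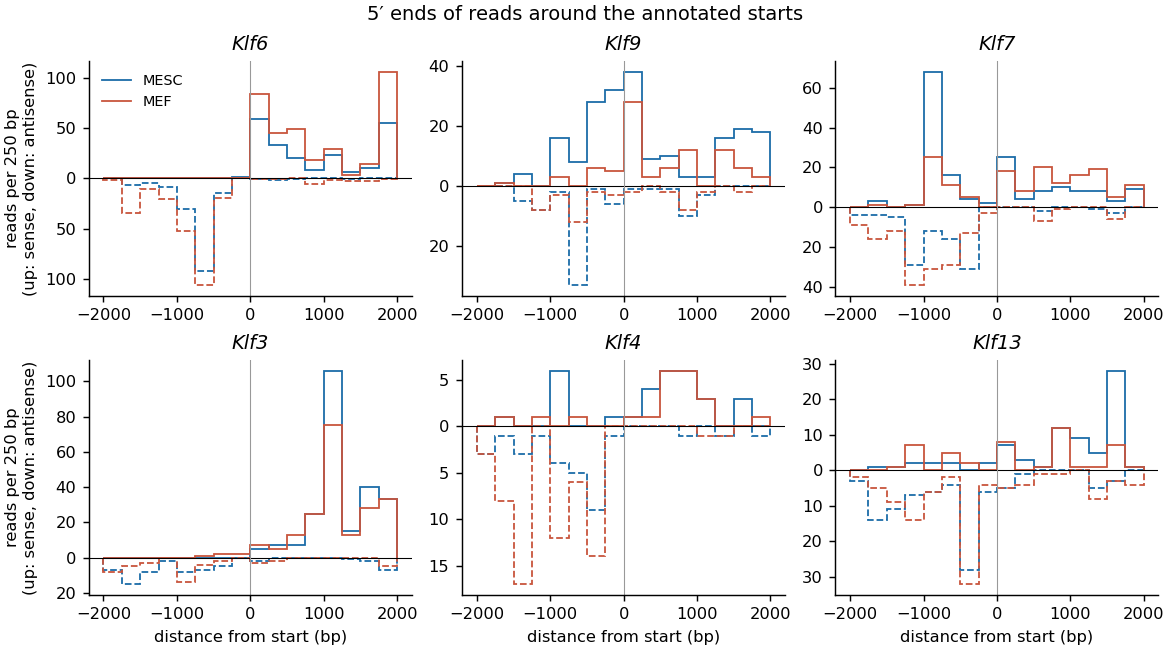
Read 5′ ends per 250 bp from 2000 bp before to 2000 bp after the annotated start of 6 members, sense upward (solid) and antisense downward (dashed), MESC in blue and MEF in red, in reads not scaled for depth. Sense reads of Klf7 are highest at 1000 to 750 bp before the start (68 and 25), those of Klf3 at 1000 to 1250 bp after it (106 and 75), and the antisense reads of Klf6 at 750 to 500 bp before it (92 and 106).

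Divergent antisense reads lay upstream of most members. In the 500 bp before the start Klf13 had 34 antisense reads in MESC and 36 in MEF, against 8 promoter reads in each, so that antisense made up 81.0% and 81.8% of both kinds. Klf7 had 31 and 16, Klf5 19 and 14, Klf6 14 and 19, and Klf4 10 and 14 with only 2 and 1 promoter reads. Klf2 had 2 and 2, and Klf12 none in either library. Antisense exceeded sense promoter reads at 2 of 5 members with 20 reads in MESC (Klf7 and Klf13), against 43.3% of 4418 genes, and at 2 of 5 in MEF (Klf5 and Klf13), against 39.4% of 3305.

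The antisense reads of several members lay beyond 500 bp. At Klf6 the bin from 750 to 500 bp before the start held 92 antisense reads in MESC and 106 in MEF, more than the 14 and 19 of the whole 500 bp window. The same bin was the highest at Klf10, with 23 and 39, and at Klf9, with 33 and 12. With a longer window of 1000 bp and an unchanged promoter window, antisense exceeded promoter reads at 7 of 8 members in each library, against 53.7% of 4914 genes in MESC and 51.6% of 3836 in MEF. At Klf4 the window from 1 to 2 kb upstream held 8 antisense reads and 1 sense read in MESC and 28 and 2 in MEF, over both strands 4.35-fold higher in MEF (2.01 to 10.4).

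Klf12 had no promoter read in either library, and its sense reads continued upstream of the annotated start. Over the 140 kb before the start there were 601 sense reads in MESC and 109 in MEF, 4.23-fold higher in MESC (3.44 to 5.23), against 468 and 186 within the annotated gene, 1.93-fold higher (1.62 to 2.30). Density per length was 0.501 and 0.119 RPKM upstream and 0.196 and 0.101 RPKM within the gene. From 140 to 200 kb upstream there were 4 and 0 sense reads. From 130 to 140 kb upstream, at the far end of this stretch, antisense reads numbered 73 and 14, while the 130 kb nearer to the gene held 8 and 2.

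Counting Klf12 from 140 kb upstream gave 1069 and 295 sense reads, 2.78-fold higher in MESC (2.44 to 3.17). That would place it past 2-fold, in place of the 1.92-fold of the annotated body. The stretch was marked off after its reads had been seen, so these values are a description. The promoter of Klf12 shown above, with the lowest GC content of the 8, belongs to the annotated start at which no read fell.

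**Figure D4:**
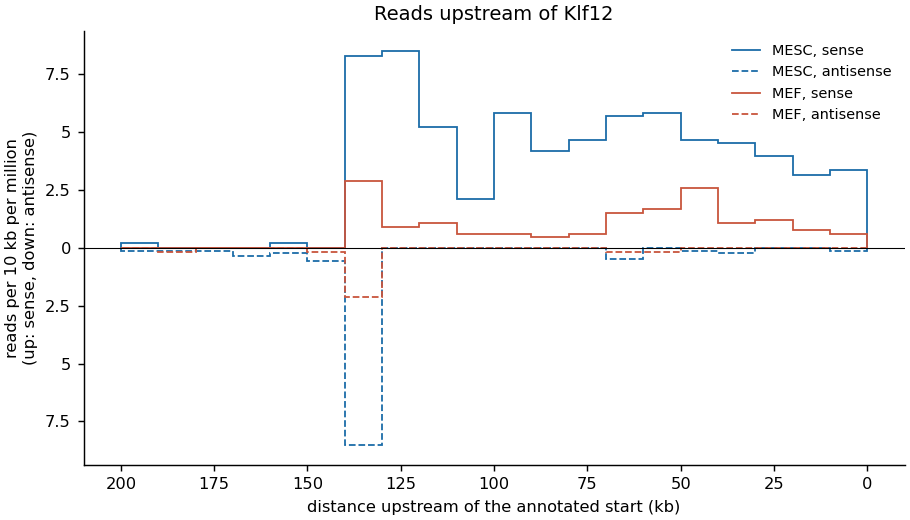
Sense (solid, upward) and antisense (dashed, downward) reads per 10 kb, scaled to library size, in the 200 kb before the annotated start of Klf12, MESC in blue and MEF in red. Sense reads run to the bin at 130 to 140 kb (71 and 19 reads) and end there, where the antisense reads have their peak (73 and 14 reads).

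Along the bodies the members differed in how reads were spread. The end share, the density of the last of 10 equal parts of the body over that of the rest, was 3.595 in MESC and 0.709 in MEF at Klf13, 5.07-fold higher in MESC (3.81 to 6.82), with 274 and 70 reads in that last part. At Klf6 it was 3.48 and 1.32, 2.63-fold higher in MESC (2.05 to 3.39), with 245 and 116 reads. An end share at least 2-fold higher in MESC was found at these 2 of 6 members tested, against 8.14% of 5039 genes, and at none in MEF, against 2.80%. Klf7 stood at 1.87-fold (1.42 to 2.46), and Klf12 at a ratio of 0.507, toward MEF (0.284 to 0.917). Klf3 and Klf5 had intervals that hold 1.

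Past the end the order was the other way. The 5 kb past the annotated end of Klf6 held 105 reads in MESC and 417 in MEF, and relative to the body this read-through was 3.85-fold higher in MEF (3.04 to 4.91). At Klf7 there were 65 and 270 reads, 2.25-fold higher in MEF (1.68 to 3.04). Read-through was at least 2-fold higher in MEF at these 2 of 7 members tested, against 7.92% of 5268 genes, and at none in MESC, against 1.61%. Klf13 stood at 1.66-fold (1.29 to 2.15), with 115 and 191 reads. The body that read-through is set against includes its last part, so read-through and end share are not separate measurements.

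The second kilobase past the end held the most MEF reads at Klf6, Klf7 and Klf13, with 166, 153 and 78 reads, against 38, 25 and 17 in MESC. Klf3 was read still further, to 115 MEF reads in the sixth kilobase against 28 in MESC, although its read-through over 5 kb was 1.12-fold higher in MESC, with an interval that holds 1 (0.922 to 1.37). Klf5 had its highest count in the third kilobase past the end in both libraries, with 127 reads in MESC and 39 in MEF. For Klf7 the 2-fold call is lost with MESC reads of 36 bases or with each position counted once; with MESC reads of 35 bases Klf6, Klf7 and Klf13 all pass.

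**Figure D5:**
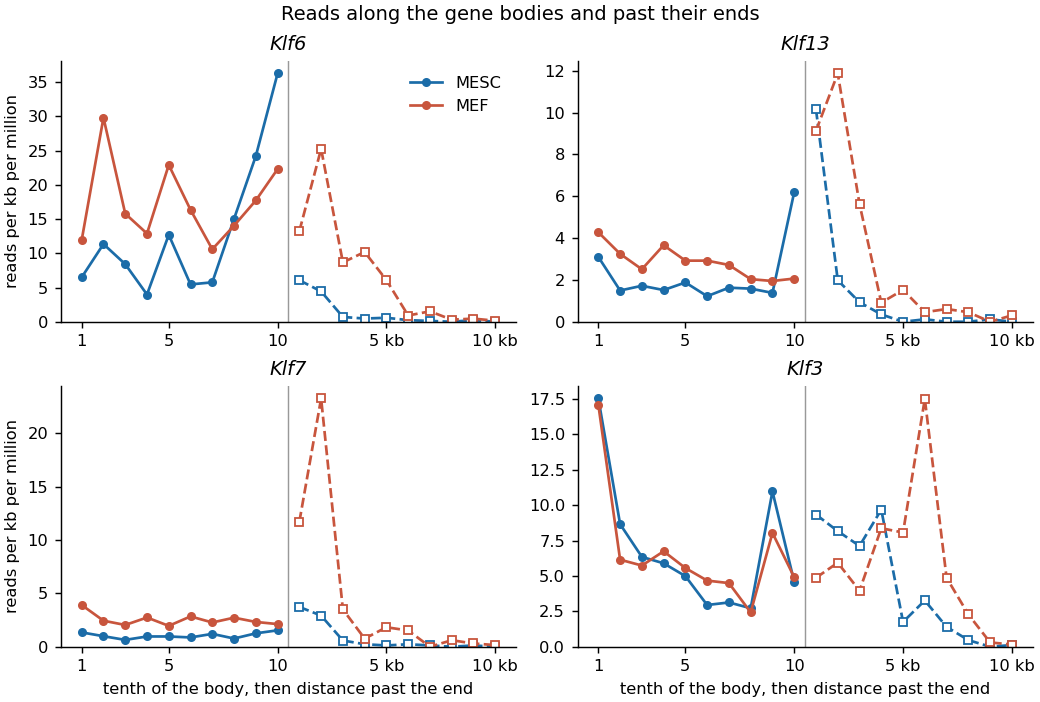
Reads per kb, scaled to library size, in the 10 equal parts of the body (filled circles) and in the 10 kb past the annotated end (open squares) of Klf6, Klf13, Klf7 and Klf3, MESC in blue and MEF in red. The last part of the body of Klf13 holds 274 MESC and 70 MEF reads, and the second kilobase past the end of Klf6 holds 38 and 166.

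Exons held relatively more reads in MESC at the same genes. The exon-to-intron ratio of densities over the annotated gene was 3.07 in MESC and 0.739 in MEF at Klf13, 4.15-fold higher in MESC (3.20 to 5.42). It was 2.03 and 0.913 at Klf6, 2.22-fold higher (1.85 to 2.66), and 2.10 and 1.04 at Klf7, 2.02-fold higher (1.55 to 2.62). A ratio at least 2-fold higher in MESC was found at these 3 of 7 members tested, against 6.81% of 5947 genes, and at none in MEF, against 2.22%. With each position counted once, Klf13 alone was left of these. With MESC reads of 36 bases Klf13 and Klf6 were left, and the call of Klf7 was lost. Reads in the last exon can count in both the end share and this ratio, so they are not separate measurements.

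Near the members, 1 kb windows outside annotated genes and within 100 kb were read on both strands above the intergenic background in 88 cases. The 29 that had 20 reads or more in either library could be tested: in MESC 7 exceeded MEF by 4-fold or more, against 29.3% of 5319 such windows of the genome, and in MEF 5 exceeded MESC, against 13.4%. These shares are near those of the genome, where such windows also differ more often than gene bodies do.

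The window with the most reads among the 7 lay upstream of Klf13, 18 to 19 kb before its start (chromosome 7, 71101802 to 71102801), with 111 reads in MESC and 4 in MEF, a ratio of 21.3 (8.08 to 79.5), 27 and 84 of the MESC reads falling on the sense and antisense strand. A window 97 to 98 kb upstream of Klf13 had 39 and 0 reads, which with 3 reads standing in for the 0 makes MESC at least 9.97-fold higher, with an exact lower limit of 7.73. One 48 to 49 kb upstream of Klf9 had 21 and 0. Downstream of Klf3, 2 adjoining windows from 46 to 48 kb past the end (chromosome 5, 65267368 to 65269367) were read in MEF, with 3 and 35 reads in the first and 5 and 69 in the second, 18.0-fold higher in MEF there (7.35 to 57.2). A window 69 to 70 kb past the end of Klf13 had 13 and 68 reads, 6.82-fold higher in MEF (3.74 to 13.46). Klf13 and Klf3 thus had windows of both directions within 100 kb, with bodies that differed by 1.30-fold and 1.03-fold.

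Near Klf4 and Klf5 the windows read in MESC alone were weaker. Downstream of Klf4, 46 to 48 kb past its end, 2 adjoining windows held 10 and 14 reads in MESC and 0 in MEF, under the minimum of 20 reads each. The window 12 to 13 kb past the end of Klf4 held 12 reads in MESC and 22 in MEF. Downstream of Klf5 the window at 11 to 12 kb held 21 and 4 reads, a ratio of 4.03 (1.36 to 16.1), and those at 25 to 26, 26 to 27 and 35 to 36 kb held 8, 9 and 10 reads in MESC and 0 in MEF. Such windows under the minimum were not particular to these genes. Several lay upstream of Klf9, among them 1 at 19 to 20 kb with 16 reads in MESC and 0 in MEF.

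Of the other family genes, the 16 further KLF and SP genes all matched the annotation and 8 could be tested. At 4-fold 2 of 8 were higher in MESC, against 8.00% of all bodies, and 0 in MEF, against 5.51%, with a median log2 ratio of 0.70, against 0.30. Klf15, a metabolic regulator, had 79 and 11 body reads, 5.51-fold higher in MESC (2.92 to 11.5), and Sp6, an epithelial and tooth factor, had 78 and 2, a ratio of 29.9 from the counts as they are (8.00 to 251) and of 19.9 with the floor of 3 reads. At 2-fold 3 of 8 were higher in MESC, against 20.7% of all bodies, and 0 in MEF, against 12.6%. The 1 more was the CtBP-binding Klf8, with 117 and 40 reads and a ratio of 2.24 (1.55 to 3.30), named after its value was seen. Sp3, untested for an overlap, had 897 and 775 reads and Sp1 430 and 250, the most in this list.

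Of 13 cofactor genes, 11 could be tested, 0 were past 4-fold in either direction, against the same 8.00% and 5.51%, and the median log2 ratio was 0.28. Ctbp2, the corepressor partner of Klf3 and Klf12, had 6939 and 1479 body reads, a ratio of 3.597 (3.40 to 3.81), but overlaps another gene on its strand and was not tested. Crebbp, an acetyltransferase that acts with KLF activators, had 1414 and 1383 reads, a ratio of 0.784 (0.727 to 0.845). At 2-fold 1 of 11 was higher in MESC, against 20.7% of all bodies, and 0 in MEF, against 12.6%. That gene, Fbxw7, a ubiquitin ligase subunit that targets KLF proteins for degradation, had 1597 and 492 reads, a ratio of 2.49 (2.25 to 2.76). It was named after its value was seen.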

How the data were processed

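Per the labels' protocols, nuclei of MESC and MEF were run on with Br-UTP. Per the series' design text, reads were aligned by the authors with Eland to mm9 and those in rRNA-like repeats removed; its version, and how duplicates and reads with several matches were handled, is not stated there. Each line of the deposited files is 1 aligned read with the value 1, a raw read count with no normalization, and the files pool the samples of a cell type, so no edgeR test over samples was made and no p-value compares the cell types over replicates. In all 5 samples form 2 pooled libraries. Reads carry no molecular identifiers, and intervals and floors cover counting error only.

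Of every 400th read, 92.9% (MESC) and 95.5% (MEF) matched the NCBIM37 assembly at the listed 5′ end. In MESC 74.4% and in MEF 71.3% of reads lay at distinct positions, 11.5% and 16.4% lay in 2 rDNA-like loci, and MESC reads were 35 or 36 bases long, MEF reads 35. Despite the stated removal, reads at these 2 loci were thus still in the deposited files, and they count in the totals of the main scaling. GENCODE gave 1 model per gene, the longest transcript: 22885 of at least 2000 bp, 19941 without another gene of the same strand over the body. Reads were counted by 5′ end and strand; for calls and log2 ratios a count under 3 was set to 3, while ratios printed with an interval use the counts as they are. For ratios the intervals of 95% are exact conditional ones (Clopper-Pearson), for counts Poisson ones. Intergenic background, 10000 bp from genes, was 0.193 and 0.114 reads per kb and strand. RefSeq promoters were placed on mm9 by exact match.

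The members and lists were chosen with earlier results of these data known. Named are all members, list genes past 4-fold and the 2 with most body reads per list. Calls were tested on simulated data that carry counting error alone, with changes of 8-fold and indices of 8. Variation between samples was no part of that test. Alternatives covered scaling, minimum, windows, starts, read length, depth, thinning and positions counted once. Tools were Python 3.11.15, NumPy 2.4.6, SciPy 1.17.1, pandas 2.3.3, matplotlib 3.10.9, R 4.3.3 and edgeR 4.0.16, used for its TMM factors alone.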

Additional observations from a re-analysis of the deposited data

How the results depend on the processing

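No tested member (6 to 9 by body, 1 to 8 by promoter) was past 4-fold under the alternatives tried (scaling, minimum, windows, starts, read length, thinning, positions counted once); Klf10, untested there for its 9 promoter reads, had a log2 ratio of 2.10 with 36-base MESC reads. At a ratio of 2 the body count in MEF was 1 (Klf7) and the promoter count in MESC 1 (Klf5). Members with a pausing index of at least 2 numbered 1 of 8 in each library with the window from -100 to 500 bp. The main counts were 2 of 8 in MESC and 3 of 8 in MEF, and 1 of 8 was left in MESC with positions counted once. The difference of the Klf7 index left 0 calls with 35-base MESC reads and 0 with positions counted once. Members with more antisense than promoter reads numbered 7 of 8 in each library with a window of 1000 bp (all genes 53.7% and 51.6%), against 2 of 5. From the start with most reads they numbered 1 of 6 in MESC and 3 of 5 in MEF. Read-through higher in MEF numbered 3 of 6 members with 35-base MESC reads, 1 of 6 with 36-base reads and 1 of 6 with positions counted once, against 2 of 7. End shares higher in MESC numbered 3 of 5 with 35-base reads, against 2 of 6. Exon-to-intron ratios higher in MESC numbered 2 of 6 with 36-base reads and 1 of 6 with positions counted once, against 3 of 7. For the counts of pausing, body ends, exons and the start with most reads, the share of all genes was not taken again. Whether all genes moved alike was not tested. The causes were not tested; the 1000 bp window takes in more antisense reads by construction. Of 250 log2 values of single members under alternatives, 232 lay inside their counting interval and 18 outside it, 11 of these under TMM or median-ratio scaling. A changed read minimum or overlap rule cannot alter a log2 ratio, and the longer Klf12 stretch alters Klf12 alone. Such unchanged values are inside by construction, so the 232 overstate how stable the ratios were. Alternatives added after seeing the data were those on the index difference, body ends, overlaps with short genes and Klf12; the others were listed at the start. No paired analysis was possible because the deposited reads carry no sample name, and for the same reason no replicate could be left out. Promoter values rest on at most 101 reads and Klf4 on 19 body reads per library.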
